A study of Mus musculus with 12 samples.

Results

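The response of Arkadia-null mouse embryonic stem (ES) cells to 3 h of Activin A was described from 4 of the 12 RNA-seq libraries of the series. They were the SB and 3 h Activin libraries of the null cell lines 25 and 39, chosen by genotype and treatment label and paired within each line. Both lines are labelled Arkadia -/- and strain 129SvEv, and each gave 1 library per treatment. Dishes of every line spent 24 h in N2B27 on fibronectin, outside the GSK3 and MEK inhibitors and LIF of routine culture, and then 4 h with 10 µM SB431542 (SB), an inhibitor of the kinases through which Activin, Nodal and TGFβ signal. The SB dish was harvested at that point. In the remaining dishes the inhibitor was washed out and Activin A was supplied at 10 ng/ml in N2B27, with harvest 3 or 6 h later. Inhibitor washout, new medium and elapsed time are therefore part of every change given here, because fresh medium without Activin was not among the treatments. The WT lines 18 and 26 of the same strain, treated alike, served to ask whether the null response differed, and the 6 h libraries of the null lines are set beside the 3 h values. The labels do not describe the Arkadia allele or how the lines were derived. Whether a p-value reaches beyond these 2 null lines cannot be told from 2 lines per genotype. It measures how unevenly the changes between treatments repeat in the 2 lines of each genotype, over all 12 libraries.

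Activin and Nodal bind a pair of serine/threonine kinase receptors, which phosphorylate SMAD2 and SMAD3. These enter the nucleus with SMAD4 and act on genes together with partners such as FOXH1. SnoN (Skil) and Ski hold SMAD target genes in check, and Arkadia (Rnf111) is a ubiquitin ligase that marks SnoN, Ski and SMAD7 for destruction when the pathway is active. In ES and epiblast cells the pathway turns on its own ligand and antagonists, feeds Nanog, and at higher levels starts mesendoderm genes.

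Rnf111 stood at 0.855 and 0.681 FPKM (by definition, fragments per kilobase of transcript scaled to mapped fragments) in SB in lines 25 and 39. After 3 h it stood at 0.832 and 0.650 FPKM. WT libraries in SB and at 3 h held 3.76 to 4.27 FPKM, so the low level followed the labels in all 4 null libraries. Activin did not move it detectably (log2 change -0.02, adjusted p = 0.85 with limma). The ES cell markers Pou5f1 (562 to 809 FPKM over the 4 libraries), Dppa5a (562 to 1025 FPKM) and Lin28a (98.5 to 116 FPKM) were abundant throughout. Sox2 (32.0 to 44.8 FPKM), Utf1, Dppa4, Sall4 and Zfp42 were also present. The remaining listed markers, Nanog (4.98 to 69.9 FPKM) and Tdgf1 (19.8 to 259 FPKM), were not steady: both were lower in SB and rose with Activin.

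Summed FPKM was 604602 and 722232 in SB and 779113 and 785508 at 3 h in lines 25 and 39, and relative depths, read from the smallest steps between low values, were 1.72, 1.46, 1.33 and 1.22 times that of the shallowest library of the series. The 3 h library of line 25 stood apart in its ribosomal RNA loci (Gm42418, Rn18s-rs5 and Gm15564), which took 10.7% of its summed FPKM against 3.70% and 6.21% in the SB libraries of lines 25 and 39 and 5.13% in line 39 at 3 h. In line 25 the change after 3 h also fell with transcript length (Spearman -0.141 across genes, against 0.009 in line 39). With the length trend removed, an alternative chosen after seeing the data, 1908 genes rose and 1584 fell, beside 1986 and 1802 without that step. Values without line 25 are given beside the results they move.

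Of 12823 tested genes, 1986 rose and 1802 fell in the null lines after 3 h (adjusted p under 0.05, limma with the cell line as block). That is 15.5% of tested genes rising and 14.1% falling. It is the background for counts of list members below from the fit with all lines, not for counts without a line. Changes are given as differences in log2(FPKM + 1), 3 h minus SB, and called log2 changes. This scale understates the change of genes with low FPKM. Large changes were mostly rises: on this scale 176 genes rose and 29 fell by more than 2-fold. The median change over all tested genes was -0.013. Every called gene moved the same way in both lines, which the test favours, and 135 of the 176 exceeded 2-fold in each line separately. Across all tested genes the changes of the 2 lines correlated at 0.577 as a description, since genes are not replicates. Among the 176 risers, 104 reached a mean of 5 FPKM at 3 h and 51 were partial loci, in which the deposited locus covers less than 0.5 of the annotated gene. Among the 29 fallers, 14 were partial loci. Without line 25, 345 genes rose and 104 fell, and without line 39, 1400 rose and 799 fell. Leaving out a line of either genotype takes the residual degrees of freedom of the fit from 4 to 2, and fewer genes were called in each case. List counts without line 25 below belong beside the smaller totals without that line. Without the block, 834 rose and 915 fell.

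**Figure D1:**
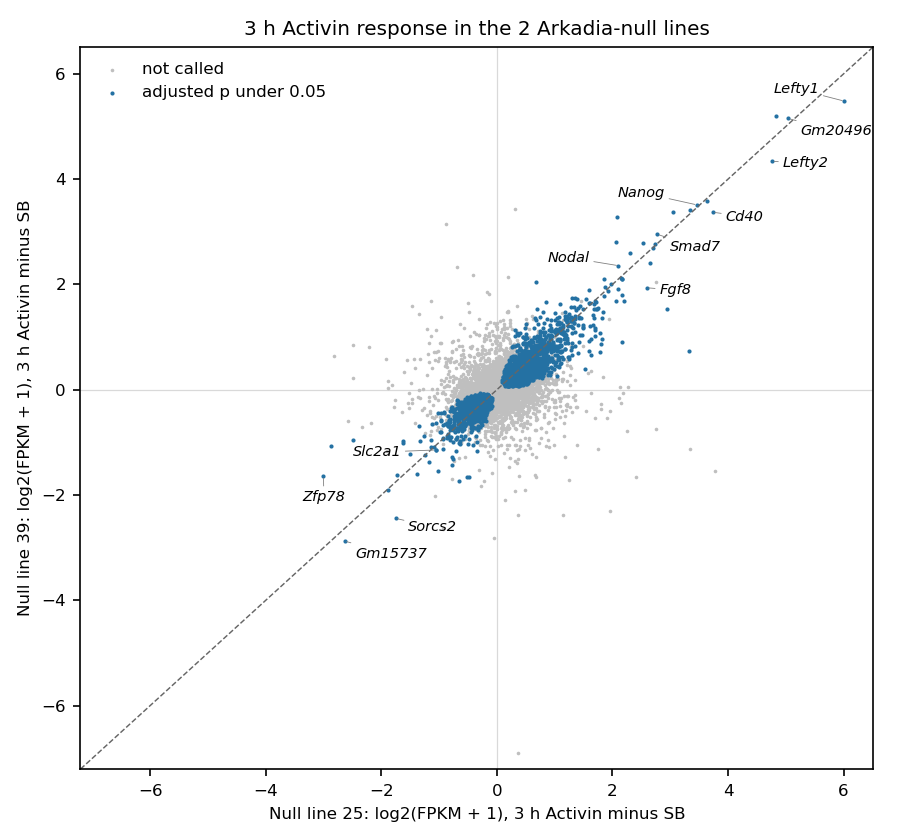
Change of each tested gene after 3 h of Activin in null line 25 (x axis) and null line 39 (y axis), both as log2(FPKM + 1) at 3 h minus SB. Blue points have an adjusted p under 0.05, grey points do not, and the dashed line marks equal change. Lefty1 and Lefty2 lie at the top right near the line, and Gm15737, Zfp78 and Sorcs2 at the lower left.

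Ligand, co-receptor and antagonist genes that the pathway itself controls were among the steepest risers. Lefty1 and Lefty2 encode secreted antagonists of Nodal. Lefty1 (chromosome 1, 180934985 to 180938453, mm10) went from 0.109 and 0.127 FPKM in SB in lines 25 and 39 to 70.5 and 49.4 FPKM at 3 h. Lefty2, its neighbour on the chromosome, went from 0.0651 and 0.0858 to 27.9 and 21 FPKM. Both genes were near 0 in every SB library and high in every 3 h library, and line 25 was the higher line after Activin for both. Their log2 changes were 5.75 (SE 0.124, adjusted p = 8e-06) and 4.55 (SE 0.139, adjusted p = 1.9e-05).

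Tdgf1 (Cripto) encodes the membrane co-receptor that Nodal needs, and Nodal is the endogenous ligand of the same receptors. Tdgf1 (chromosome 9, 110939601 to 110946232) was at 19.8 and 23.4 FPKM in SB and at 210 and 259 FPKM at 3 h in lines 25 and 39, a log2 change of 3.38 (SE 0.0458, adjusted p = 1.1e-06). Nodal was at 8.72 and 7.69 FPKM in SB and at 40.8 and 43.5 FPKM at 3 h, a log2 change of 2.23 (SE 0.0938, adjusted p = 7.1e-05). SB and Activin libraries did not overlap for either gene, and line 39 was the higher line at 3 h. Tdgf1-ps1, a processed pseudogene of Tdgf1 that can take its reads, followed it with 5.06 and 5.11 FPKM in SB and 49.3 and 62.7 FPKM at 3 h.

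Of the 17 tested genes of the ligand and antagonist list, 7 rose and none fell at an adjusted p under 0.05, with a list median of 0.16. Besides the 4 above these were Gdf3, a Nodal-related ligand (42.9 and 46.9 FPKM in SB, 54.5 and 53.5 FPKM at 3 h, log2 change 0.26), the BMP antagonist Nog (log2 change 0.71) and the BMP antagonist Grem1 (log2 change 0.96). Grem1 was a partial locus listed at 0 in both SB libraries and at 0.778 and 1.13 FPKM at 3 h. Leaving out line 25 ended the call of Gdf3, and leaving out either line ended those of Nog and Grem1. The follistatin gene Fst, whose product binds Activin, was at 8.55 and 9.45 FPKM in SB and 6.94 and 9.63 FPKM at 3 h, with overlapping groups (log2 change -0.12, adjusted p = 0.37). Bmp4 (log2 change -0.34, adjusted p = 0.13) and Tgfb1 (log2 change 0.16, adjusted p = 0.28) did not pass the test either.

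Receptor genes changed less. Of 15 tested receptor and membrane-proximal genes 4 rose and none fell, with a median of 0.03 that turned to -0.01 without line 39. The steepest was Pmepa1, a membrane protein that sequesters receptor SMADs. It was read from a short partial locus at 0.0449 and 0.279 FPKM in SB and 3.71 and 3.43 FPKM at 3 h (log2 change 1.98, adjusted p = 0.00038). Bambi, a pseudoreceptor that dampens signalling, went from 10.6 and 11.4 to 17.0 and 16.7 FPKM (log2 change 0.58, adjusted p = 0.0039), a call lost without line 25. Bmpr2, a BMP type II receptor also read from a partial locus, went from 2.01 and 1.48 to 5.37 and 5.43 FPKM (log2 change 1.23, adjusted p = 0.003). Acvr1, a type I receptor, rose by a log2 change of 0.45, a call lost without either line. The Activin receptors themselves did not pass the test: Acvr1b had a log2 change of 0.03, Acvr2a of -0.21 and Acvr2b of 0.09.

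Among 12 tested SMADs and partners 4 rose and 1 fell, with a median of 0.11. Smad7, the inhibitory SMAD that Activin signalling induces, went from 0.383 and 0.330 FPKM in SB in lines 25 and 39 to 8.46 and 9.30 FPKM at 3 h (log2 change 2.86, SE 0.0819, adjusted p = 1.6e-05). Smad6, the inhibitory SMAD of the BMP branch, went from 0.432 and 0.202 to 1.51 and 1.17 FPKM (log2 change 0.83, adjusted p = 0.0063). Smad1 rose by 0.45 and Crebbp, a coactivator read from a partial locus, by 0.52, and Trim33, a SMAD4-binding ubiquitin ligase, fell by 0.26. Calls of Smad6, Smad1 and Trim33 were lost without either line, and that of Crebbp without line 25. The signal carriers Smad2 (log2 change 0.11), Smad3 (-0.13) and Smad4 (-0.12) and the DNA-binding partner Foxh1 (-0.15) did not pass the test.

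The corepressors that Arkadia targets as proteins rose at the RNA level. Skil was at 8.81 and 7.97 FPKM in SB and at 15.7 and 16.2 FPKM at 3 h in lines 25 and 39 (log2 change 0.86, SE 0.058, adjusted p = 0.00048). Ski was at 3.32 and 2.95 FPKM in SB and at 6.25 and 5.78 FPKM at 3 h (log2 change 0.76, SE 0.0781, adjusted p = 0.0022), a call lost without line 25. SB and 3 h libraries were separate for both genes. Tgif1, a homeodomain corepressor of SMADs, went from 52.6 and 54.9 to 67.2 and 72.1 FPKM (log2 change 0.37, adjusted p = 0.0023). In the whole list of 16 corepressors and ubiquitin regulators 4 rose and 2 fell, with a median of -0.05. The other riser was the ubiquitin ligase Smurf1 (0.28), and the fallers were the ligase Stub1 (-0.20) and the scaffold Axin1 (-0.21), all 3 calls being lost without either line.

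**Figure D2:**
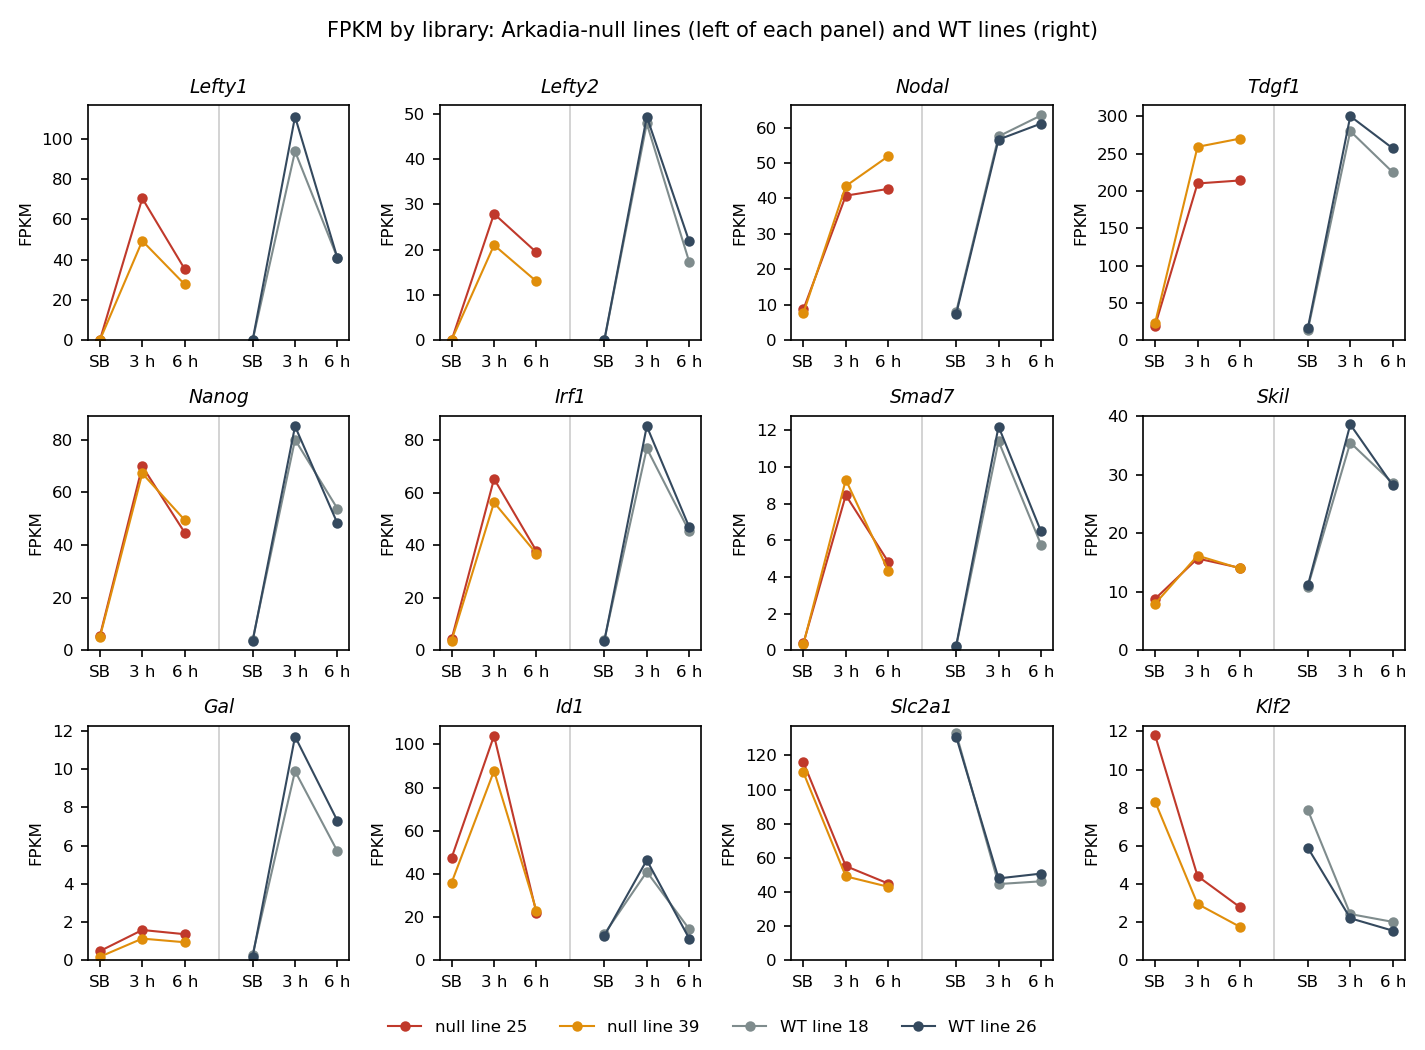
FPKM of 12 genes in each library, with SB, 3 h and 6 h on the x axis, Arkadia-null lines at the left and WT lines at the right of each panel, and the points of a cell line joined. Lefty1, Lefty2 and Smad7 start near 0 in every line, Skil and Gal stay lower in both null lines than in both WT lines at 3 h, and Slc2a1 and Klf2 fall in all 4 lines.

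Of 30 genes listed as Activin/Nodal targets, 24 were tested, 21 rose and none fell at an adjusted p under 0.05, beside 15.5% of all tested genes rising. The list median was 1.67 (1.73 in line 25 and 1.61 in line 39). The list holds several genes of the lists above, and it was drawn up with results of these data known. Without line 25, 17 of the 24 rose. Members that did not pass the test were Cyp26a1, Fst and Bmp7.

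Nanog, a homeodomain factor of pluripotency with Activin-responsive control regions, went from 5.44 and 4.98 FPKM in SB to 69.9 and 67.2 FPKM at 3 h in lines 25 and 39 (log2 change 3.49, SE 0.0833, adjusted p = 1.1e-05). The 3 h values of the 2 lines were close to each other and far from their SB libraries. Fgf15, an FGF ligand gene, went from 0.560 and 0.358 to 9.43 and 8.31 FPKM (log2 change 2.76). Junb, an AP-1 subunit gene read from a partial locus, went from 5.05 and 3.89 to 18.8 and 14.5 FPKM (log2 change 1.69).

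Several mesendoderm genes rose from near absence to low levels. That does not hold for every riser of the list: Otx2 stood at 46 and 45.9 FPKM in SB and at 62.5 FPKM in both lines at 3 h. Of 22 listed genes 11 were tested, the others being below the filter or not analysed here, and 8 of the 11 rose and none fell, with a median of 1.09. Gsc, an organiser homeodomain factor, went from 0.292 and 0.342 FPKM in SB to 4.77 and 4.75 FPKM at 3 h (log2 change 2.13, adjusted p = 0.0002). Fgf8, a ligand of the primitive streak, went from 0.248 and 0.220 to 6.53 and 3.67 FPKM (log2 change 2.26, adjusted p = 0.00094), line 25 being the higher. Wnt3, which helps to start the streak, went from 0.48 and 0.4 to 3.95 and 3.08 FPKM (log2 change 1.64). T (Brachyury), a streak factor, reached 1.46 and 1.90 FPKM from 0.145 and 0.379 FPKM (log2 change 1.09, adjusted p = 0.0019). Levels of all 4 stayed below 10 FPKM, far under that of Nanog. Endoderm genes Sox17 and Foxa2 stayed under 1 FPKM in all 4 libraries and were not tested.

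Promoter windows of 300 bases (250 before and 50 after a RefSeq start, build GRCm38.p6) were given for 106 of the 176 genes that rose over 2-fold (145 windows), for 22 of the 29 that fell over 2-fold (25 windows) and for 9102 of all tested genes (11645 windows). They were searched on both strands for the letters CAGACA (a SMAD-binding element), GTCTAGAC (the palindromic SMAD element, which does not contain CAGACA), TGTGNATT (a FOXH1 element) and TGANTCA (an AP-1 element). CAGACA was in 20% of windows of the risers, 16.0% of those of the fallers and 15.9% of all. GTCTAGAC was in none of the windows of risers or fallers and in 0.232% of all. TGTGNATT was in 4.83% of windows of the risers (7 of 145), in none of the 25 of the fallers and in 2.11% of all. TGANTCA was in 6.21%, 4.00% and 4.79%. A match of letters is not a bound site, and windows this short leave out distal elements. Windows of 4 genes are shown 5′ to 3′, from RefSeq, with matches in capitals: Nanog for its large rise, Gal and Tdgf1 because their responses differed between genotypes, and Smad6 because it is a riser under 2-fold with the palindrome.
Nanog, chr6:122707239-122707538, plus strand: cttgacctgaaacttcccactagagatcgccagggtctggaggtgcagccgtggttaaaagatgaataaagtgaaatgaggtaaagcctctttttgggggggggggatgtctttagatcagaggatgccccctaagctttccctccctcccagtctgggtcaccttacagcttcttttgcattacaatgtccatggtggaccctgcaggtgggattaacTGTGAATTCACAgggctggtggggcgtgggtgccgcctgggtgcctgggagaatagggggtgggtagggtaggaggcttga
Smad6, chr9:64022010-64022309, minus strand: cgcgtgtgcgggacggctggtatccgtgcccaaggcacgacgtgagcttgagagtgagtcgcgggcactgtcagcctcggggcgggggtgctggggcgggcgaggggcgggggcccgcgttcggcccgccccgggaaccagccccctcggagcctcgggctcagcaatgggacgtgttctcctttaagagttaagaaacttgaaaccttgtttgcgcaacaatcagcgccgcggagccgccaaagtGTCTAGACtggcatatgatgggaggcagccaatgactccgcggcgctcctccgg
Gal, chr19:3414495-3414794, minus strand: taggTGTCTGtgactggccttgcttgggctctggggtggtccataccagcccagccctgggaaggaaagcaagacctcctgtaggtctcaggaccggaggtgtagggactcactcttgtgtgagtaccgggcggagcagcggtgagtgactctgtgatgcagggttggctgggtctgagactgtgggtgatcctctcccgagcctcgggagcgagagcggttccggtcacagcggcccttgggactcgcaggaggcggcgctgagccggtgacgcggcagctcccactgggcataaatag
Tdgf1, chr9:110946109-110946408, minus strand: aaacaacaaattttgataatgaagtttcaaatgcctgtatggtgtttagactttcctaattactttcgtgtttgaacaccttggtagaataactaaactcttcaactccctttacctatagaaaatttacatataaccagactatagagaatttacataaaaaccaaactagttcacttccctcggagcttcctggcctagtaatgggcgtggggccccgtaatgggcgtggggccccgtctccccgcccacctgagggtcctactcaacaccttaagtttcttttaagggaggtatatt
The capitals in Nanog are overlapping matches to TGTGNATT on both strands, those in Smad6 the palindrome and those in Gal the reverse complement of CAGACA, while none of the 4 motifs was found in the Tdgf1 window.

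Genes of BMP signalling moved with the Activin response. Of 17 tested BMP and ID targets 10 rose and 1 fell, with a median of 0.58 that was 0.35 in line 25 and 0.85 in line 39. Msx1, a homeodomain factor, went from 2.95 and 2.00 FPKM in SB to 18.6 and 17.2 FPKM at 3 h (log2 change 2.46, adjusted p = 6.3e-05). Id1, an inhibitor of bHLH factors, went from 47.5 and 36.0 to 104 and 87.7 FPKM (log2 change 1.19, adjusted p = 0.0047), a call lost without line 25. Tbx3 rose by 1.65 on a partial locus, likewise lost without line 25. The lone faller, Id3, named after its values were seen, went from 136 and 130 to 101 and 96.6 FPKM (log2 change -0.43, adjusted p = 0.0033). Id1 in SB was also higher in both null lines than in both WT lines, which held 12.2 and 11.4 FPKM. Without line 25, 2 of the 17 rose.

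Core and naive pluripotency genes moved in both directions. Of 14 tested core factors, a list that holds Tdgf1, 6 rose and 2 fell, with a median of 0.14. Pou5f1 went from 562 and 688 FPKM in SB to 698 and 809 FPKM at 3 h (log2 change 0.27, adjusted p = 0.0068), lost without line 25 and -0.03 after quantile normalization. Dppa5a, an RNA-binding protein of early embryos, rose by 0.53, Fgf4 by 0.27 on a partial locus, and Trim71 (0.25) and Dppa2 (0.19), named after their values were seen, were the other risers. Sox2 went from 44.8 and 38.9 to 35.0 and 32.0 FPKM (log2 change -0.31, adjusted p = 0.0059), and Lin28a fell by 0.19. Fgf4 and Lin28a lost their calls without either line and Sox2 without line 25. Without line 25, 2 of the 14 rose and none fell.

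Of 12 tested naive factors 2 rose (Nanog and Tbx3) and 5 fell, with a median of -0.16. Klf2, a Kruppel-like factor of ground-state cells, went from 11.8 and 8.32 FPKM in SB to 4.42 and 2.96 FPKM at 3 h (log2 change -1.23, adjusted p = 0.00042). Zfp42 (Rex1) went from 110 and 108 to 62.1 and 57.7 FPKM (log2 change -0.86, adjusted p = 0.00021). The SB and 3 h libraries of both genes were separate in both lines. The orphan receptor gene Nr5a2 fell by 1.02 on a partial locus, a call lost without line 25, and Gbx2 (-0.88) and Fbxo15 (-0.56) were the other fallers, named after their values were seen.

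Formative epiblast genes gave 6 risers and 1 faller among 16, with a median of 0.10. Tcf15, a bHLH factor of the early epiblast, went from 9.14 and 9.24 FPKM in SB to 32.9 and 28.8 FPKM at 3 h (log2 change 1.64, SE 0.0729, adjusted p = 9.7e-05). Fgf5, a marker of the primed epiblast, went from 11.3 and 10.7 to 16.1 and 15.9 FPKM (log2 change 0.51) and Otx2, an epiblast and head factor, from 46.0 and 45.9 to 62.5 and 62.5 FPKM (log2 change 0.44). Both calls were lost without line 25. Grhl2, an epithelial factor, fell by 0.53. Without line 25, 1 of the 16 rose and none fell.

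Immediate early and AP-1 genes gave 11 risers and 1 faller among 21, with a median of 0.30, and 3 risers and no faller without line 25. Btg2, an antiproliferative gene, went from 8.39 and 7.44 FPKM in SB to 16.4 and 14.5 FPKM at 3 h (log2 change 0.88, adjusted p = 0.00025). The mRNA-decay factor gene Zfp36 rose by 0.74 and the AP-1 gene Fosl2 by 0.63, calls that were lost without line 25, and Dusp1 (-0.27), named after its values were seen, was the faller. In the ERK feedback list 7 of 16 rose and 2 fell, with a median of 0.15: Il17rd (Sef), an FGF receptor antagonist gene, rose by 0.99, while the ERK phosphatase gene Dusp4 went from 31.2 and 24.8 to 16.9 and 13.4 FPKM (log2 change -0.85, adjusted p = 0.00017). Spred1, an inhibitor of the RAS pathway, fell by 0.43. Without line 25, 1 of the 16 rose and 1 fell. Among WNT targets 4 of 14 rose and none fell: Dkk1, a secreted WNT antagonist (1.62), T, the repressor Tcf7l1 (0.69) and the receptor Fzd7 (0.32, lost without either line).

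Matrix and cytoskeletal targets rose in part, with 11 of 30 rising, 4 falling and a median of 0.18. Without line 25, 4 rose, none fell and the median was 0.03. Ctgf, a matricellular protein gene, went from 9.43 and 7.59 FPKM in SB to 25.6 and 20.8 FPKM at 3 h (log2 change 1.35, adjusted p = 6.3e-05). Thbs1, which encodes thrombospondin, went from 1.70 and 1.29 to 6.26 and 4.94 FPKM (log2 change 1.40), and the fibronectin receptor gene Itga5 from 2.74 and 1.92 to 6.51 and 5.25 FPKM (log2 change 1.05). Ankrd1, a nuclear protein gene responsive to TGFβ, rose by 1.06, lost without line 25. All 4 stood higher in line 25 than in line 39 at each of SB and 3 h. The fallers, named after their values were seen, were Cnn2 (-0.30), Myl9 (-0.22), Vim (-0.17) and Sparc (-0.16).

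A pair of immune genes was among the steepest risers. Irf1, an interferon-responsive transcription factor gene, went from 4.30 and 3.76 FPKM in SB to 65.3 and 56.3 FPKM at 3 h (log2 change 3.62, SE 0.0713, adjusted p = 6.6e-06). Cd40, a receptor of the TNF family, went from 2.11 and 2.69 to 40.5 and 37.2 FPKM (log2 change 3.55, SE 0.0962, adjusted p = 1.3e-05). Of 15 tested interferon-type genes 8 rose and 1 fell (B2m, -0.22, named after its values were seen), with a median of 0.50. Cd274 (PD-L1) went from 0.259 and 0.368 to 2.30 and 3.49 FPKM (log2 change 1.55). Psmb8, an immunoproteasome subunit gene, reached 1.45 and 0.851 FPKM from 0.181 and 0.0354 FPKM (log2 change 0.94), lost without line 25. Gm20496, a partial locus annotated antisense at the same position as Psmb8, was listed at 0 in both SB libraries and at 31.8 and 34.6 FPKM at 3 h. Whether counting used strand is not stated, so reads of these 2 loci cannot be told apart, and the call of Gm20496 (adjusted p = 0.011) was lost without either line. Without line 25, 3 of the 15 interferon-type genes rose.

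Some of the 20 largest rises belonged to no pathway list. Bcar3, an adaptor of integrin signalling read from a partial locus, went from 2.74 and 2.72 FPKM in SB to 22.4 and 18.8 FPKM at 3 h (log2 change 2.53, adjusted p = 2.7e-05). Gm44514 (log2 change 2.70), Gm37913 (2.66) and RP23-106I21.5 (2.69), whose locus overlaps Plekha2, are loci of no role known here. Rsg1 went from 3.75 and 4.34 to 18.9 and 36.4 FPKM on a partial locus, with a call lost without either line. Scx, a bHLH factor gene whose locus overlaps Bop1 and Hsf1, went from 0.572 FPKM in SB to 11.1 FPKM at 3 h in line 25 and to 4.84 FPKM in line 39, with a call lost without line 25.

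Among the 12 largest falls, Zfp78, a zinc finger gene, went from 90.4 and 71.1 FPKM in SB to 10.4 and 22.1 FPKM at 3 h (log2 change -2.32, SE 0.466, adjusted p = 0.013), lost without line 25. Sorcs2, a sorting receptor gene, went from 9.41 and 8.07 to 2.09 and 0.667 FPKM (log2 change -2.10, adjusted p = 0.018), and Gm15737 from 48.7 and 6.34 to 7 and 0 FPKM (log2 change -2.76, SE 0.77, adjusted p = 0.039). In FPKM, though not in log2(FPKM + 1), the SB libraries of Gm15737 differed more between lines than SB and 3 h did in line 39. The calls of both Sorcs2 and Gm15737 were lost without either line. Lurap1l, an actomyosin regulator gene, went from 3.40 and 4.43 to 0.683 and 0.789 FPKM (log2 change -1.49, SE 0.132, adjusted p = 0.0013) and held its call in each case. Mybpc2, a myosin-binding protein gene read from a partial locus, went from 4.35 and 5.53 to 0.448 and 0.733 FPKM (log2 change -1.90, SE 0.108, adjusted p = 0.00026). The other 7 were Anxa10 (-1.97), Tmem163 (-1.72), Gm16764 (-1.67), Nr2f1 (-1.30) and Spic (-1.28), all partial loci, and Gm45036 (-1.36) and Gm45053 (-1.31).

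Of 27 tested genes of glucose transport, glycolysis and hypoxia 13 fell and 1 rose (Higd1a, 0.28, named after its values were seen), with a median of -0.23, beside 14.1% of all tested genes falling. Slc2a1, the main glucose transporter, went from 116 and 110 FPKM in SB to 55.2 and 49.2 FPKM at 3 h (log2 change -1.10, SE 0.0496, adjusted p = 0.00011). Pdk1, whose product inhibits pyruvate dehydrogenase, went from 30.5 and 31.4 to 17.6 and 18.0 FPKM (log2 change -0.77). The lactate exporter Slc16a3 went from 56.7 and 56.9 to 35.8 and 38.1 FPKM (-0.61). The aldolase gene Aldoa went from 524 and 511 to 321 and 372 FPKM (-0.58). SB and 3 h values were separate in both lines for all 4 genes. Aldoa lost its call without line 25, when 4 of the 27 fell.

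Of 23 tested amino acid and unfolded protein stress genes 13 fell and 1 rose, with a median of -0.32. Chac1, a glutathione-degrading enzyme of the stress response, went from 10.3 and 11.2 FPKM in SB to 6.01 and 5.57 FPKM at 3 h (log2 change -0.79, adjusted p = 0.0017). Pdia4, a chaperone gene of the endoplasmic reticulum, went from 85.5 and 77.7 to 55.6 and 54.4 FPKM (log2 change -0.56), and the stress factor gene Xbp1 fell by 0.50. The riser was Slc3a2 (0.59), read from a short partial locus. Calls of Pdia4, Xbp1 and Slc3a2 were lost without line 25, when 4 of the 23 fell.

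Proliferation genes shifted modestly. Of 24 mitosis genes 14 fell and 2 rose, with a median of -0.19. Prc1, a spindle midzone protein gene, went from 31.4 and 27.7 FPKM in SB to 21.2 and 21.6 FPKM at 3 h (log2 change -0.44, adjusted p = 0.0047), and the spindle motor gene Kif11 and the kinase gene Aurkb each fell by 0.40, while the checkpoint gene Mad2l1 rose by 0.41. The other riser, Nuf2 (0.28), was named after its values were seen. Of 24 S phase genes 10 fell and 7 rose, with Rrm1, a ribonucleotide reductase gene, at -0.46 and the cyclin gene Ccne2 at 0.60. Without line 25, 1 mitosis gene fell, 1 S phase gene fell and none of either list rose. Cholesterol synthesis gave 3 risers and 3 fallers among 19, with Idi1 (0.50) and Msmo1 (0.30) rising, Dhcr7 (-0.30) and Mvk (-0.27) falling, and Insig1 (0.22) and Lss (-0.27) named after their values were seen. Among 18 p53 targets 5 rose and 2 fell, led by Btg2 and by the cell cycle inhibitor gene Cdkn1a (0.55). Without line 25, 1 gene of each of these 2 lists rose and none fell. Without the block, 1 cholesterol gene rose and 1 fell, and 1 p53 target rose and none fell.

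Ribosomal protein genes depended on the scaling. Of 75 tested genes 51 rose and 1 fell (Rpl28, -0.23, named after its values were seen), with a median of 0.34 that was 0.49 in line 25 and 0.21 in line 39. Rps27a, for example, went from 1457 and 1912 FPKM in SB to 2632 and 2762 FPKM at 3 h (log2 change 0.69, adjusted p = 0.0036). After quantile normalization 17 rose, 16 fell and the median was 0.04, and without the block 7 rose.

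**Figure D3:**
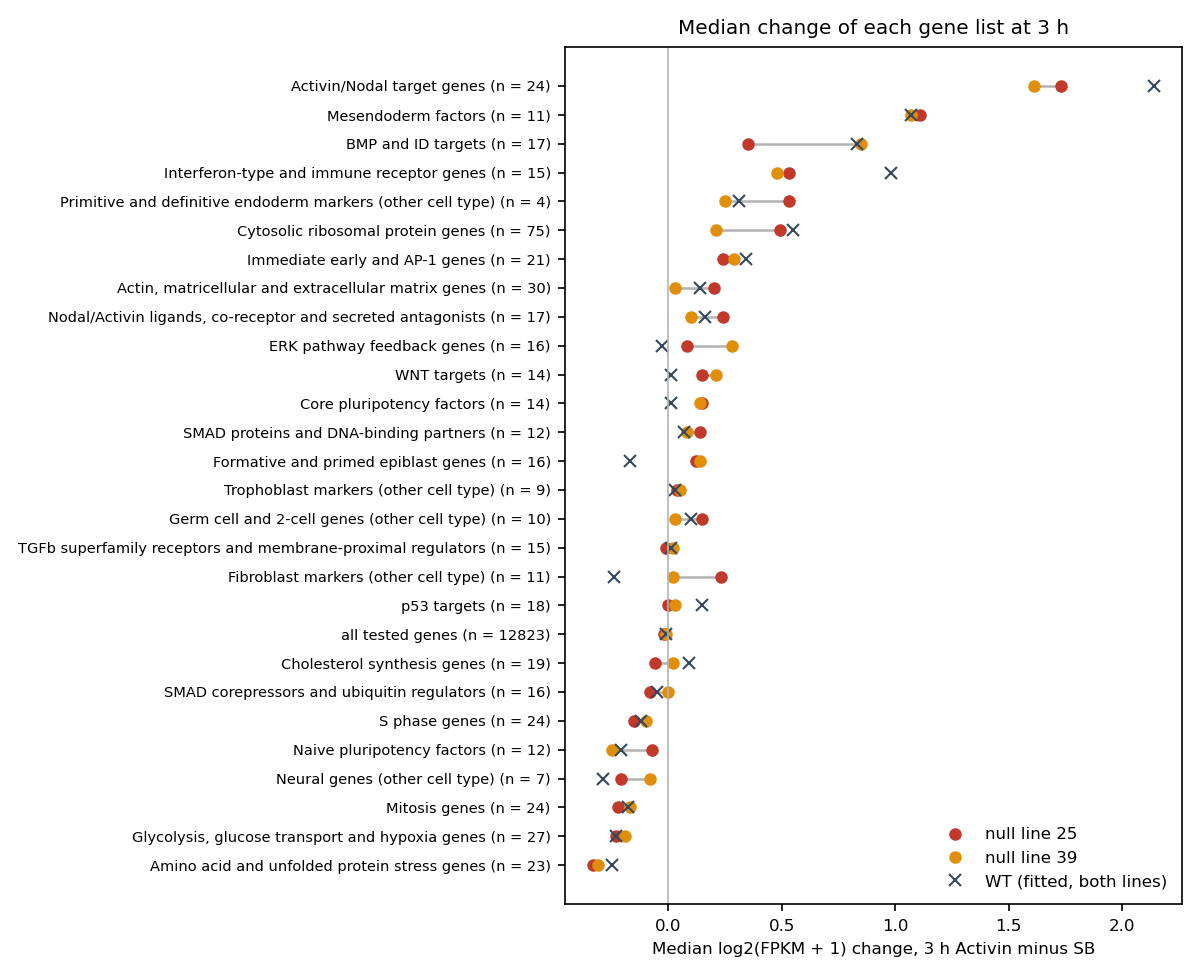
Median log2(FPKM + 1) change after 3 h of Activin for the tested members of each gene list, as measured in null line 25 and null line 39 (points) and as fitted over both WT lines (crosses), with the number of tested genes beside each name. Activin/Nodal targets and mesendoderm factors lie farthest to the right, and glycolysis and stress genes to the left. BMP and ID targets, ribosomal protein genes, endoderm markers and fibroblast markers are among the lists that lie apart between the 2 null lines.

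Lists of markers of cell types other than ES cells are given beside the 15.5% of all tested genes that rose and the 14.1% that fell. In bulk RNA, a change in the share of cells of a type and a change in RNA per cell cannot be told apart. Neural genes had 1 riser (Nes, 0.54) and 1 faller (Map2, -0.45) among 7 tested, and their summed level was 42.8 and 33.1 FPKM in SB and 35.6 and 31.6 FPKM at 3 h in lines 25 and 39. Endoderm markers had 2 risers among 4 (Gata4, 0.93, a partial locus, and Cxcr4, 0.46), with summed levels of 5.80 and 7.29 FPKM in SB and 9.66 and 9.93 FPKM at 3 h. Trophoblast markers had 1 riser (Furin, 0.75) and 1 faller (Tfap2c, -0.34) among 9, and stood higher in line 25 (160 FPKM in SB and 168 FPKM at 3 h) than in line 39 (116 and 121 FPKM). Most of that sum was the keratin genes Krt18 (75.7 to 101 FPKM over the 4 libraries, log2 change 0.05) and Krt8 (23.8 to 41.4 FPKM, -0.02), neither of which passed the test. Germ cell genes had 1 riser among 10 (Sycp3, 0.31), with summed levels of 73.3 and 114 FPKM in SB and 88.8 and 128 FPKM at 3 h. Fibroblast markers had 3 risers among 11 (Pdgfrb, 0.96, and Lox, 0.92, both partial loci, and Col5a1, 0.52), with summed levels of 30.1 and 23.1 FPKM in SB and 32.3 and 23.1 FPKM at 3 h. Sox17 was listed at 0 in line 39 at 3 h. None of these calls was kept without line 25, and their part in the other results was not tested.

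The WT lines gave 2728 risers (21.3% of tested genes) and 2044 fallers (15.9%) after 3 h, and 2072 and 2481 after quantile normalization. Without line 18, 347 genes were called in WT, and without line 26, 489. The null and WT responses share no library, so their difference was tested directly as null change minus WT change. It passed an adjusted p under 0.05 for 3 of 12823 genes (0.0234%) and an unadjusted p under 0.05 for 1596. All 3, Gal, Gm44732 and Tdgf1, rose less in the null lines.

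Gal encodes the neuropeptide galanin, and its null rise (adjusted p = 0.0053) was itself lost without either null line. In the null lines 25 and 39 it went from 0.487 and 0.190 FPKM in SB to 1.59 and 1.14 FPKM at 3 h, and in WT lines 18 and 26 from 0.301 and 0.185 to 9.89 and 11.7 FPKM. The log2 change was 0.83 in null and 3.24 in WT cells, a difference of -2.42 (SB levels overlapping between genotypes, 3 h levels well apart, adjusted p = 0.021). Tdgf1, described above, had a log2 change of 4.17 in WT against 3.38 in null cells, a difference of -0.79 (adjusted p = 0.042 with limma). The WT lines held 280 and 300 FPKM at 3 h. The SB level of Tdgf1, on average higher in the null lines, is part of that difference along with the 3 h level. Gm44732, annotated antisense and overlapping Cdkn1c, had a log2 change of 1.36 in WT and 0.43 in null cells, a difference of -0.94 (adjusted p = 0.021). Its levels did not separate the genotypes, with 43.7 and 34.1 FPKM at 3 h in null and 26.7 and 54.9 FPKM in WT lines, so the call rests on changes within lines. All 3 calls were lost without any one line (694 to 2043 genes at an unadjusted p under 0.05), without the block, with a pseudocount of 0.1 and without a variance trend.

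Some other pathway genes, and Cd40, had smaller changes in null than in WT cells that did not pass this test. In whole lists, the null change lay below the WT change in 14 of 17 ligand and antagonist genes and 8 of 15 receptor genes. It did so in 5 of 12 SMADs and partners and 6 of 16 corepressors and ubiquitin regulators, beside 55.7% of all tested genes. For Skil the WT lines reached 35.5 and 38.6 FPKM at 3 h against 15.7 and 16.2 FPKM in null lines, and the difference in log2 change was -0.81 (adjusted p = 0.1). For Pmepa1 the difference was -1.27 (adjusted p = 0.19), for Cd40 -1.23 (adjusted p = 0.1), for Lefty2 -1.01 (adjusted p = 0.26), for Lefty1 -0.89 (adjusted p = 0.26), for Nanog -0.67 (adjusted p = 0.25) and for Nodal -0.51 (adjusted p = 0.29). For Ski and Msx1 it was 0.09 and -0.10. Failing the test does not show that the genotypes respond alike.

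Of the 176 genes that rose over 2-fold in null cells, 162 were called in the same direction in WT, and of the 29 fallers 13 were. The 176 were chosen by their null change, and their median log2 change was 1.29 in null and 1.5 in WT cells. The null change was below the WT change in 117 and above it in 59. Both null lines changed less than both WT lines in 79 of the 176 genes, where the lines so separated in 26.2% of all tested genes. Both null lines changed more in 28, where the lines so separated in 18.5% of all tested genes. Over all tested genes the null change lay below the WT change in 55.7%. In the target list it did so in 17 of 24 genes, with medians of 1.67 in null and 2.14 in WT cells. The target list did not stand alone: interferon-type genes (13 of 15), p53 targets (14 of 18) and germ cell genes (9 of 10) had higher shares. Also higher were cholesterol synthesis (16 of 19), ligand and antagonist (14 of 17) and mesendoderm genes (9 of 11), while mitosis genes had 17 of 24. Some shares depended on the scaling. After quantile normalization cholesterol synthesis had 10 of 19 and mitosis 6 of 24, while the target list had 18 of 24. The formative list went the other way, with 1 of 16 below WT and medians of 0.10 in null and -0.17 in WT cells. So did the ERK feedback list (4 of 16) and the neural list (1 of 7). Less far from the share of all genes were, among others, WNT targets (5 of 14) and corepressors and ubiquitin regulators (6 of 16). All 75 ribosomal protein genes had smaller changes in null than in WT cells, but 56 of 75 did after quantile normalization, when 49.8% of all tested genes lay below WT, and none passed the test of the difference.

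**Figure D4:**
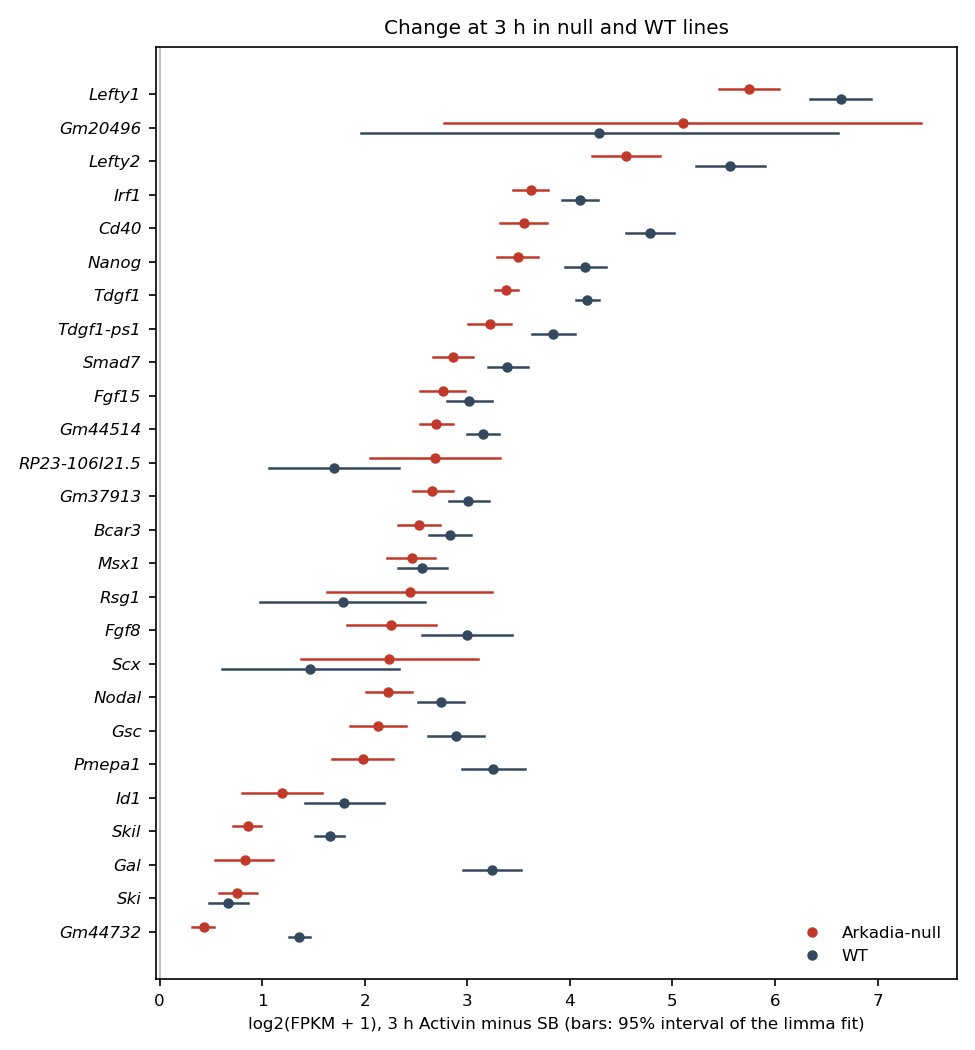
Log2(FPKM + 1) change after 3 h of Activin in Arkadia-null (red) and WT (dark) lines, fitted with limma, with 95% intervals, for genes among the 20 largest null rises and 7 further genes of the text. Gal and Gm44732 show the gap that passed the test of the difference together with Tdgf1, and the wide bars of Gm20496, Scx, Rsg1 and RP23-106I21.5 mark uneven libraries.

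The null lines at 6 h, which share the SB and 3 h libraries of the comparisons above, are given as levels beside the 3 h values. From 3 to 6 h 1140 genes rose (8.89% of tested genes) and 584 fell (4.55%), but none passed without any one line or in the null libraries alone (limma, 2904 to 3372 genes at an unadjusted p under 0.05). After quantile normalization 681 rose and 582 fell. Lefty1 stood at 35.4 and 27.8 FPKM at 6 h in lines 25 and 39, below its 3 h level in both. Smad7 stood at 4.83 and 4.35 FPKM and Gsc at 1.48 and 1.10 FPKM, again below 3 h. Id1 stood at 21.9 and 23.0 FPKM, below its SB level in both lines. Tdgf1 (214 and 270 FPKM), Nodal (42.7 and 51.9 FPKM) and Skil (14.1 and 14.0 FPKM) stayed near their 3 h levels. Fst, which had not moved at 3 h, stood at 26.3 and 31.4 FPKM. Slc2a1 remained low at 45.0 and 43.1 FPKM, while Pdia4 (97.8 and 94.1 FPKM) stood above its SB level in both lines.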

How the data were processed

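Poly(A) RNA was read as 50 bp single reads, per the labels' protocols. The authors deposited per-locus FPKM of each library (unit per the file headers), with mm10 named as build in the submitters' processing notes. Aligner, quantifier, strand use and scaling: not given in the sources used here. Read totals are unknown.

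Of 17446 loci, 2666 without a gene name (3.41 to 3.86% of summed FPKM) and 27 with a status other than OK were left out, and 1 locus per name was kept (highest mean FPKM; 13508 genes, of which 12870 matched GENCODE M21). Genes with FPKM of at least 1 in 2 libraries were tested with limma 3.58.1 in R 4.3.3 on log2(FPKM + 1), with 6 group means, the cell line as block, a variance trend, 4 residual degrees of freedom and two-sided Benjamini-Hochberg adjusted p-values over 12823 genes. Every adjusted p of the text comes from limma. The block follows the labels, by which the dishes of a line share that line. Deviations from group means correlated at 0.246 to 0.349 between treatments in null lines and at 0.017 to 0.054 in WT lines. The fit was tested on simulated data for null 3 h against SB, fitted over 12823 genes. It recovered 76% of 50 changes of 0.5 and 96% of 50 changes of 1 (log2), with 16 false calls among 202. The changed genes were drawn only from those with higher mean levels, so recovery at low FPKM was not tried.

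The members and the 27 lists were chosen with earlier results of these data known. The text names Rnf111, the pathway lists, the 20 largest rises and 12 largest falls, up to 8 genotype differences in each direction and up to 4 called members of each other list. 1 gene under these rules is not reported here by name; it stays in the counts and medians. Alternatives changed the block, pseudocount, filter, scaling, row choice, libraries and variance trend, and left out each line. Removing a length trend was added after seeing the data.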

Additional observations from a re-analysis of the deposited data

Results flagged for a closer look

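The change after 3 h of Activin differed between null and WT lines, by the test of the difference itself, in 3 genes. For Gal, the galanin gene, the difference of null minus WT log2 change was -2.42, its adjusted p with limma was 0.021, and both null lines changed less than both WT lines. For Gm44732, an antisense locus at Cdkn1c, it was -0.94 (adjusted p = 0.021). For Tdgf1, the Nodal co-receptor gene, it was -0.79 (adjusted p = 0.042). Over the alternatives the adjusted p ran from 0.021 to 0.57 for Gal, from 0.015 to 0.93 for Gm44732 and from 0.036 to 0.8 for Tdgf1, with the same sign in each.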

How the results depend on the processing

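The count of genes called in the null lines at 3 h (3788) depended on the replicate block: without it, 1749 were called (834 up, 915 down). It was 2397 (1034 down) with only 3 h and SB libraries and 1974 (1163 up, 811 down) with the 6 null libraries. Leaving out a line gave 449 to 2199 calls, 345 to 1400 up and 104 to 820 down; the lone null line left is then assumed to vary like WT. Genes up over 2-fold numbered 372 and down over 2-fold 80 with a pseudocount of 0.1, and 15 were down over 2-fold at FPKM of at least 5. Quantile normalization gave 1644 up and 1939 down and turned Pou5f1 to -0.03. WT calls (4772) were 2882 without the block and 347 to 4456 without a line. The genotype difference (3 genes) was called in 1 gene after quantile normalization and in 0 without the block, with a pseudocount of 0.1, with only 3 h and SB libraries, without a variance trend, with the length trend removed, and without any one line (0 to 0), with 654 to 2043 genes at an unadjusted p under 0.05. From 3 to 6 h (1724 calls), 594 genes were called without the block, 0 with the 6 null libraries and 0 to 0 without a line. The cause was not tested. Of 122 calls among 163 named genes, 69 were lost without line 25, 30 without line 39 and 25 without the block, 1 reversed, and the other settings ended at most 24. Depth limits low genes most in the 6 h null library of line 39, the shallowest of the 12.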
